A study of Homo sapiens with 18 samples.

Results

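BMI1, LIN28B and TERT are 3 genes linked to self-renewal, the capacity of a cell to divide and keep its own state. They were taken by name from a table of transcript levels, in which their symbols stand on 5 of 6999 lines. After repeats and misplaced symbols had been removed, 1 set of values was left for each of the 3 genes, of 5069 distinct sets in all. RNA sequencing measured transcripts in 2 cell lines from human acute myeloid leukaemia. OCI-AML3 carries NPM1c+, the mutated nucleophosmin that is held in the cytoplasm, and OCI-AML2 carries normal NPM1. In each line CASP2, which encodes the stress protease caspase-2, was targeted with CRISPR-Cas9, and 2 clones labelled as caspase-2 knockouts were compared with parental cells labelled as caspase-2 wild type. This gave 6 groups of 3 libraries: OCI-AML3 clone 1, OCI-AML3 clone 2 and OCI-AML3 parental cells, and the same for OCI-AML2. All 18 libraries came from cells without treatment. Each clone is a single clone, and the labels do not say whether the libraries of a group came from separate cultures, so the spread between them may be technical.

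BMI1 is a subunit of polycomb repressive complex 1, which marks chromatin and keeps genes silent, and the CDKN2A locus of cell cycle inhibitors is its best known target. LIN28B binds the precursors of let-7 microRNAs and blocks their maturation, and let-7 in turn lowers the mRNAs of growth genes. TERT is the reverse transcriptase of telomerase, which extends chromosome ends and is rate-limiting for the enzyme in most cells. All 3 are active in stem cells and in many cancers, and BMI1 is needed by blood stem cells and leukaemia cells to keep dividing.

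The promoters of BMI1 and LIN28B are shown because the mRNAs of these genes rose together in OCI-AML2 clones. Each stretch is the 250 bases upstream of the outermost start of the gene in RefSeq, on GRCh38.p14, and the capitals mark the E-box CACGTG, which MYC and related factors bind, and the GC box GGGCGG or its reverse complement CCGCCC, which SP1 binds.
BMI1, plus strand, chr10:22320849-22321098: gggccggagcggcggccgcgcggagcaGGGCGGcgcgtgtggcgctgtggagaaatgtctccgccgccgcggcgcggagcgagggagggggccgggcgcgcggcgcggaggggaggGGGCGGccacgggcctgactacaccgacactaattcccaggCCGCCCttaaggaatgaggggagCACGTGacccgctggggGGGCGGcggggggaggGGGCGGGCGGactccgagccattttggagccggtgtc
LIN28B, plus strand, chr6:104940715-104940964: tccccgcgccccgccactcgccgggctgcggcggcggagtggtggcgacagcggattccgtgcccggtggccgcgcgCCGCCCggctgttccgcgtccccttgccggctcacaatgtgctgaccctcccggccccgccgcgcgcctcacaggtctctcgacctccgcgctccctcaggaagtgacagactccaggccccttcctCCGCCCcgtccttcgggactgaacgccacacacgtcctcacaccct
The BMI1 stretch held 1 E-box, 70 bases upstream of the start, and 6 GC boxes, of which the last 2 overlap. The LIN28B stretch held 2 GC boxes and no E-box. The same window of TERT held 1 E-box and 2 GC boxes. Of 35116 promoter windows of this length, 6.345% held the E-box and 42.6% the GC box. BMI1 and LIN28B have a second start in RefSeq, and that window held 5 GC boxes and no E-box in BMI1, and 1 E-box and no GC box in LIN28B.

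LIN28B acts on let-7, so the mature sequence of the best known family member is shown with its seed, bases 2 to 8, in capitals.
hsa-let-7a-5p: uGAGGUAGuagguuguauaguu
In RefSeq 11 mature human microRNAs share this seed, 8 of them named let-7. Its match in a 3′ UTR is CTACCTC. The longest annotated 3′ UTR of LIN28B in GENCODE 29 held 4 matches, and those of BMI1 and TERT held 0, while 9.58% of 19113 genes held at least 1. A match is a description of the sequence and no measured site.

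Values are TPM as deposited, a transcript level scaled by transcript length and by library. Changes are differences of log2(TPM + 1), which understate changes at low levels, with the standard error (SE) and a p adjusted over 4413 tested sets of values; a change was called at an adjusted p under 0.05. Read depth is unknown, so no counting error is given. CASP2 mRNA was at 3 to 5.06 TPM in the OCI-AML2 clones and at 35.32 to 37.29 TPM in their parental cells. In OCI-AML3 it was at 26.34 to 35.39 TPM in the clones and at 28 to 30.11 TPM in parental cells, so mRNA does not check the labels of the OCI-AML3 clones. Genes appear to have been listed for a large difference, since in 97.5% of lines the log2 ratio of mean TPM was at least 0.95 in size in 1 of 3 places: OCI-AML2 clone 1, both OCI-AML3 clones, or parental OCI-AML3 over parental OCI-AML2. All 3 genes met this for OCI-AML2 clone 1, LIN28B also between the parental lines, and none for the OCI-AML3 clones. If the table was selected in this way, BMI1 and TERT would be in it because of the size of their change in OCI-AML2 clone 1, in either direction, whereas LIN28B would be in it by its parental difference as well. The p-values of BMI1 and TERT that use OCI-AML2 clone 1 would then be drawn from the values that put these genes there. Such p-values could not be read like those of genes taken without regard to size. Of 12 myeloid markers 4 had a settled symbol (AZU1, PRTN3, ANPEP and ITGAM), and their sum, mostly the granule genes AZU1 and PRTN3, was at least 2794 TPM in every library, although ITGAM reached at most 1.55 TPM.

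**Figure D1:**
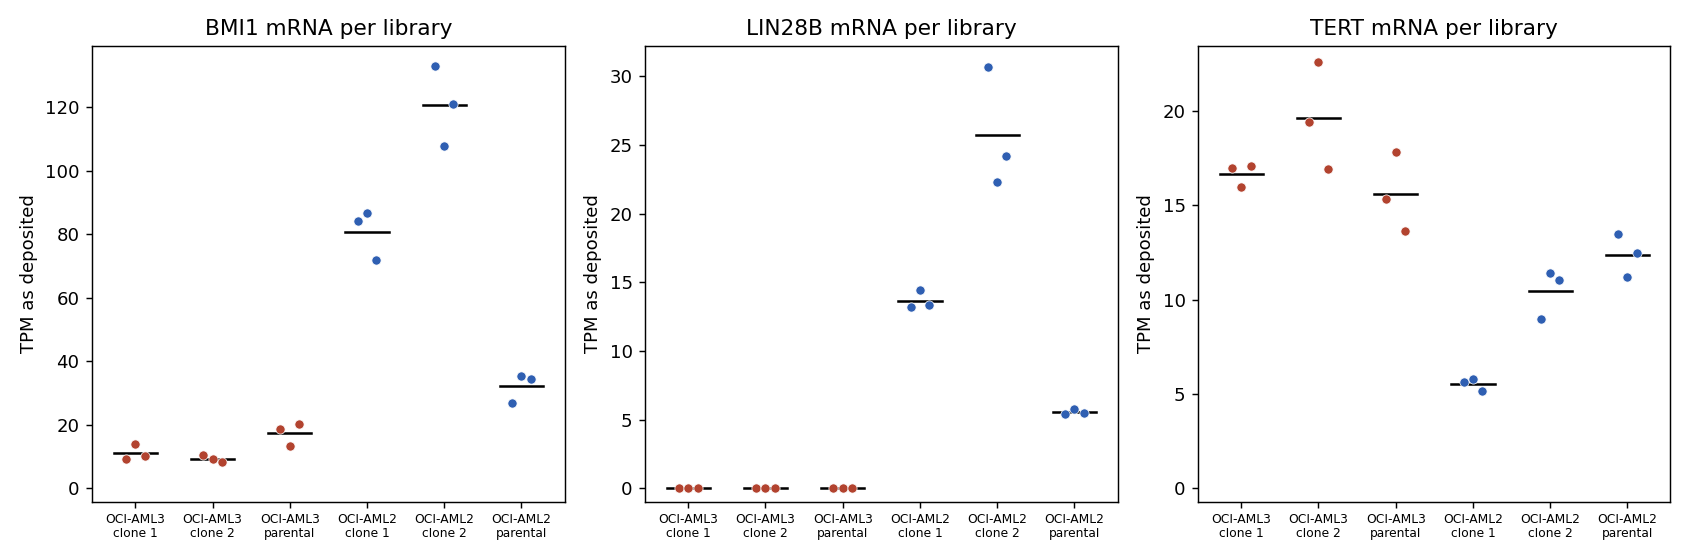
TPM of BMI1, LIN28B and TERT in each library (points), by group, with the mean of the 3 libraries as a bar; red is OCI-AML3 and blue OCI-AML2. BMI1 and LIN28B were highest in OCI-AML2 clone 2 (mean 120.6 and 25.7 TPM), LIN28B was at or near 0 throughout OCI-AML3, and TERT was lowest in OCI-AML2 clone 1 (mean 5.55 TPM).

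BMI1 rose in both OCI-AML2 clones and fell in both OCI-AML3 clones. The 3 libraries of OCI-AML2 clone 1 held 84.01, 86.6 and 71.8 TPM and those of clone 2 held 132.98, 107.69 and 120.99 TPM, against 26.89, 35.46 and 34.54 TPM in parental cells. The 6 clone libraries were all above the 3 parental ones. Mean TPM was 2.50-fold the parental mean in clone 1 and 3.73-fold in clone 2. The log2 change was 1.30 in clone 1 (SE 0.16, adjusted p = 1.1e-06) and 1.87 in clone 2 (SE 0.16, adjusted p = 6.8e-09). Clone 1 is the comparison by which BMI1 may have come to be listed, as said above. Of all tested sets 56.0% were called in clone 1 (35.1% higher, 20.9% lower) and 65.7% in clone 2 (38.3% higher, 27.5% lower), and 23.8% were called higher in both. An exact two-sided permutation test of the 6 clone libraries against 3 parental ones gave p = 0.0119, the smallest that 84 regroupings allow. The clone libraries, however, come from only 2 clones. For either clone alone, the exact permutation test gave p = 0.1, the smallest that 3 against 3 libraries allow.

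For BMI1 in OCI-AML3, the libraries of clone 1 held 9.17, 13.91 and 10.22 TPM and those of clone 2 held 10.37, 9.14 and 8.27 TPM, against 18.57, 13.41 and 20.39 TPM in parental cells. Clone 2 lay below all parental libraries, while the highest library of clone 1 lay above the lowest parental one. Clone 1 held 63.6% of the parental mean (log2 change -0.61, SE 0.16, adjusted p = 0.00189). Clone 2 held 53.05% of it (log2 change -0.83, SE 0.16, adjusted p = 0.000106). Calls were common here too, with 72.2% of tested sets called in clone 1 (31.3% higher, 41.0% lower), 73.1% in clone 2 (31.6% higher, 41.5% lower) and 38.3% called lower in both. The exact permutation test of 6 against 3 libraries gave p = 0.0238, although the 6 come from only 2 clones. With clone 1 alone, the exact permutation test of 3 against 3 libraries gave p = 0.2. With clone 2 alone, the exact permutation test gave p = 0.1, the smallest that 3 against 3 libraries allow. The symbol BMI1 also stands on a second line with other values, assigned here to another gene, and with that line the changes in OCI-AML2 would be 0.22 in clone 1 (adjusted p = 0.118) and -1.40 in clone 2. In OCI-AML3 they would be -1.29 in clone 1 and -0.99 in clone 2, both called lower like the values given here. In OCI-AML3 the sum of the 4 myeloid markers was 2951 to 4211 TPM in the clones and 8247 to 10081 TPM in parental cells, a difference carried by PRTN3 (mean 1611 and 2193 TPM in clones 1 and 2, against 7481 TPM). AZU1 was called in neither OCI-AML3 clone, ANPEP was called higher in both, and ITGAM, under 0.25 TPM, lower in both. In OCI-AML2 that sum was 7208 to 9644 TPM in clone 1, 2794 to 3649 TPM in clone 2 and 2911 to 3555 TPM in parental cells, and the part of these genes in the result was not tested.

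The change of BMI1 in the OCI-AML3 clones minus that in the OCI-AML2 clones, each the mean of both clones, was -2.31 (SE 0.19, adjusted p = 4.0e-09). A difference between the lines was called in 81.7% of tested sets, 33.2% above 0 and 48.5% below it. Of tested sets 8.34% were called higher in both OCI-AML2 clones and lower in both OCI-AML3 clones, as BMI1 was. Taken singly, these 2 patterns were met by 23.8% and 38.3%, so a lower share for both together follows from the way they are counted. In untargeted cells BMI1 averaged 17.5 ± 3.62 TPM in OCI-AML3 and 32.3 ± 4.705 TPM in OCI-AML2 (SD, n = 3 each), a log2 difference of -0.86 (SE 0.16, adjusted p = 4.8e-05), in a comparison in which 90.6% of sets were called (47.2% higher, 43.4% lower). In order of level came OCI-AML2 clone 2, OCI-AML2 clone 1, OCI-AML2 parental cells and OCI-AML3 parental cells, with no overlap between any neighbours among these 4. The OCI-AML3 clones came last, and clone 2 was not called different from clone 1 (log2 difference -0.22, SE 0.16, adjusted p = 0.422).

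LIN28B was detected in OCI-AML2, where it rose in both clones, and was listed at 0 in nearly all OCI-AML3 libraries. The libraries of OCI-AML2 clone 1 held 13.22, 14.43 and 13.36 TPM and those of clone 2 held 30.69, 22.29 and 24.22 TPM, against 5.41, 5.81 and 5.47 TPM in parental cells. The 3 groups did not overlap, and the coefficient of variation was 4.84% in clone 1, 17.1% in clone 2 and 3.88% in parental cells. The mean of clone 1 was 2.46-fold the parental mean (log2 change 1.16, SE 0.09, adjusted p = 4.2e-09). That of clone 2 was 4.63-fold (log2 change 2.01, SE 0.09, adjusted p = 1.8e-12). The exact permutation test of 6 clone libraries against 3 parental ones gave p = 0.0119, again the smallest possible. These clone libraries come from only 2 clones. For either clone alone, the exact permutation test gave p = 0.1, the smallest that 3 against 3 libraries allow. LIN28B too stands on a second line, assigned here to another gene, whose values would give -0.59 in clone 1 and -0.79 in clone 2. In OCI-AML3 that line holds 3.81 to 5.54 TPM in clone 1, 3.9 to 5.03 TPM in clone 2 and 9.84 to 10.68 TPM in parental cells.

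In OCI-AML3, LIN28B was listed at 0, 0.04 and 0 TPM in the libraries of clone 1 and at 0 TPM in all 3 libraries of clone 2 and all 3 of parental cells. No fold is given against these values, and at this unknown depth a change within OCI-AML3 was not detectable. Parental cells of the lines differed by -2.71 on the log2(TPM + 1) scale, OCI-AML3 minus OCI-AML2 (SE 0.09, adjusted p = 2.9e-15). The change in the OCI-AML3 clones minus that in the OCI-AML2 clones was -1.58 (SE 0.11, adjusted p = 4.1e-10). That difference is set by OCI-AML2 alone, since the OCI-AML3 values stay at the floor.

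TERT fell in OCI-AML2 clone 1, and its changes elsewhere were small. The libraries of OCI-AML2 clone 1 held 5.66, 5.8 and 5.18 TPM and those of clone 2 held 9, 11.44 and 11.03 TPM, against 13.48, 11.19 and 12.5 TPM in parental cells. Clone 1 lay below all other libraries of the line, while clone 2 overlapped the parental libraries. Clone 1 held 44.8% of the parental mean (log2 change -1.03, SE 0.11, adjusted p = 3.1e-07). By this comparison TERT may have come to be listed, as said above. Clone 2 held 84.7% and was not called (log2 change -0.22, SE 0.11, adjusted p = 0.0878). The exact permutation test of clone 1 against parental cells gave p = 0.1, the smallest that 3 against 3 libraries allow. For clone 2 the exact permutation test gave p = 0.2. With 6 libraries from these 2 clones against 3 parental ones, the exact permutation test gave p = 0.0476.

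For TERT in OCI-AML3, the libraries of clone 1 held 17, 15.96 and 17.07 TPM and those of clone 2 held 19.42, 22.59 and 16.95 TPM, against 15.35, 17.86 and 13.66 TPM in parental cells. All 3 groups overlapped. Clone 1 was not called (log2 change 0.10, SE 0.11, adjusted p = 0.466). Clone 2 held 126% of the parental mean and was called higher (log2 change 0.31, SE 0.11, adjusted p = 0.0178). That call ended without parental replicate 3 (log2 change 0.23, adjusted p = 0.103) or without clone 2 replicate 2 (0.21, adjusted p = 0.114), and its adjusted p ran from 0.000927 to 0.114 over 27 alternatives. The change in OCI-AML3 clones minus that in OCI-AML2 clones was 0.83 (SE 0.14, adjusted p = 2.2e-05).

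TERT averaged 15.6 ± 2.11 TPM in OCI-AML3 parental cells and 12.4 ± 1.15 TPM in OCI-AML2 parental cells (SD, n = 3 each). The log2 difference of 0.31 passed (SE 0.11, adjusted p = 0.0150), but not with TPM rescaled by medians of ratios (0.17, adjusted p = 0.148), without OCI-AML2 parental replicate 2 (0.24, adjusted p = 0.0742) or without OCI-AML3 parental replicate 2 (0.21, adjusted p = 0.0964). The single line of TERT was accepted only because its parental log2 ratio was under 0.6. The size of this parental difference was therefore limited in advance. The order of levels was OCI-AML3 clone 2, clone 1 and parental cells, then OCI-AML2 parental cells, clone 2 and clone 1. Neighbours in this order were told apart only between the parental lines, by the call just given, and at its lower end.

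**Figure D2:**
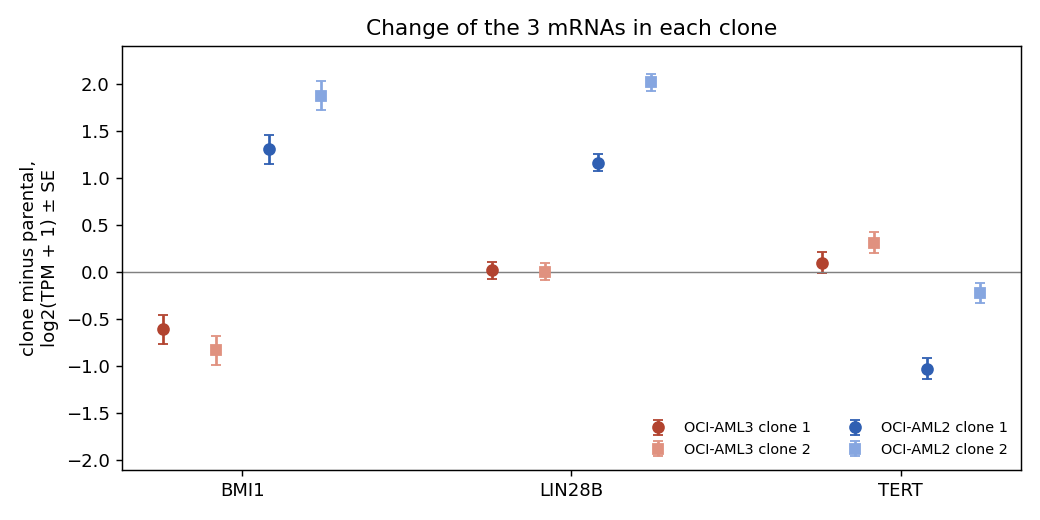
Change of each mRNA in each clone against parental cells of its line, as the difference of log2(TPM + 1) with its SE (6 libraries a comparison, spread estimated over 18). In OCI-AML2 the changes of BMI1 (1.30 and 1.87) and LIN28B (1.16 and 2.01) lie above 0 and that of TERT in clone 1 (-1.03) below it, while BMI1 lies below 0 in OCI-AML3 (-0.61 and -0.83).

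The OCI-AML2 clones differed from each other in all 3 genes. Clone 2 exceeded clone 1 by 1.49-fold in BMI1 (log2 difference 0.57, SE 0.16, adjusted p = 0.00429), by 1.88-fold in LIN28B (0.85, SE 0.09, adjusted p = 2.7e-07) and by 1.89-fold in TERT (0.81, SE 0.11, adjusted p = 6.6e-06), in a comparison that called 58.9% of sets, 29.9% as higher. The OCI-AML3 clones were called different in neither BMI1 nor TERT, in a comparison that called 6.82%. Over the 9 OCI-AML2 libraries, which share 3 group levels, the log2 values of BMI1 and LIN28B had a Pearson correlation of 0.98, and those of LIN28B and TERT one of -0.31.

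Few partners of the 3 proteins stand in the table, and each count that follows leaves out the 3 genes themselves. As background, the OCI-AML3 clones were both called higher in 35.8% of 2064 tested sets with a settled symbol and both lower in 49.6%. For the OCI-AML2 clones these shares were 28.5% and 17.4%. Of 25 other genes of polycomb repressive complex 1 and its partners 6 stand in the table, and 1, PHC1, had a settled symbol. PHC1, which joins complexes to one another, averaged 5.95 and 5.17 TPM in OCI-AML3 clones 1 and 2, against 13.6 TPM in parental cells, and fell in both (log2 changes -1.07 and -1.25, adjusted p = 3.4e-08 and 4.3e-09). In OCI-AML2 it was called higher in clone 1 (0.67) and not in clone 2 (0.19, adjusted p = 0.123).

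Of 15 genes of polycomb repressive complex 2, which methylates histone H3, 3 could be tested. In OCI-AML3 1 was called higher and 1 lower in both clones. These were PHF1, an accessory subunit that reached 133 and 155 TPM in clones 1 and 2, against 50.9 TPM in parental cells, and EPOP, another accessory subunit, at 15.4 and 15.2 TPM against 34.5 TPM. In OCI-AML2 PHF1 was called higher in both clones (mean log2 change 0.33). EZH2, the methyltransferase itself, was lower in OCI-AML2 clone 1 (5.69 TPM) and higher in clone 2 (19.7 TPM) than in parental cells (11.7 TPM), with log2 changes of -0.92 and 0.71 (adjusted p = 2.9e-07 and 4.9e-06). In OCI-AML3 EZH2 was called in neither clone.

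The cell cycle arm downstream of BMI1 was listed with 16 genes; the table holds 10, and 5 could be tested. Both OCI-AML3 clones were called higher in 3 of these and lower in 2 (median log2 change 1.08, against -0.30 over all named sets). CDKN2A, which encodes the inhibitors p16 and ARF from the locus that BMI1 is known to silence, fell to 33.9 and 36.3 TPM in clones 1 and 2, against 79.8 TPM in parental cells (log2 changes -1.22 and -1.11). Its neighbour CDKN2B, a related inhibitor, rose to 4.64 and 5.46 TPM, against 0.657 TPM (1.77 and 1.96). CDKN1A, the p53-responsive inhibitor p21, rose 3.81-fold and 4.55-fold, and the kinase gene CDK6 fell to 32.7% and 37.1% of its parental level. The highest adjusted p among these 8 changes was 3.2e-07. In OCI-AML2 2 of the 5 were called in both clones, both higher, namely CCND3, a D cyclin (mean log2 change 0.83), and CDK6 (0.62). CDKN2A was at 101 and 156 TPM in OCI-AML2 clones 1 and 2 and at 109 TPM in parental cells, and was called higher in clone 2 (0.51, adjusted p = 0.00186) but not in clone 1 (-0.10, adjusted p = 0.568).

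The list around LIN28B and let-7 names 34 more, with 8 in the table and 3 that could be tested. All 3 are known or predicted let-7 targets, and their longest 3′ UTRs held 4 seed matches in IGF2BP1 and 2 each in IGF1R and E2F2. In OCI-AML3 all 3 fell in both clones. IGF2BP1, an RNA-binding protein of fetal cells, fell to 2.74 and 2.45 TPM in clones 1 and 2, against 14.5 TPM in parental cells (log2 changes -2.05 and -2.17, adjusted p = 3.6e-14 and 1.5e-14). IGF1R, the receptor of insulin-like growth factor 1, fell to 1.02 and 1.09 TPM, against 7.75 TPM. E2F2, a cell cycle transcription factor, fell to 0.270 and 0.353 TPM, against 0.813 TPM. In OCI-AML2 IGF1R was called higher in both clones (0.20 and 0.88), E2F2 in clone 2 (1.09, adjusted p = 8.6e-09) but not in clone 1 (-0.04, adjusted p = 0.744), and IGF2BP1 was at or near 0 TPM.

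Of 29 other genes of telomerase and its telomere-binding complexes none stands in the table, so TERT is the only one of that list with values. Of 21 transcription factors known to act on TERT, 2 could be tested, and both rose in both OCI-AML3 clones. ETS1, an ETS family factor, reached 10.8 and 9.63 TPM in clones 1 and 2, against 5.28 TPM in parental cells. WT1, a zinc finger factor, reached 6.72 and 8.06 TPM, against 0.0333 TPM (log2 changes 2.89 and 3.13, adjusted p = 7.6e-15 and 2.4e-15). In OCI-AML2 WT1 was called higher in clone 2 (1.18) and not in clone 1 (0.03, adjusted p = 0.846), and ETS1 was called in neither.

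Among 46 genes of leukaemia and blood stem cells, 22 stand in the table and 11 could be tested. In the OCI-AML3 clones 5 were called higher and 5 lower, and in the OCI-AML2 clones 6 higher and 2 lower. AKR1C3, a steroid-converting enzyme, rose in both lines (mean log2 change of both clones 6.41 for OCI-AML3, 3.48 for OCI-AML2). In OCI-AML3 SOCS2, a suppressor of cytokine signalling (-1.76), and CDK6 (-1.49) fell and LMO2, a blood stem cell cofactor (1.41), rose. In OCI-AML2 HOXA9, a homeobox gene that drives leukaemia growth, rose (1.32), and CLEC12A, a myeloid surface lectin (-1.14), and DPYSL3 (-0.79) fell. Both OCI-AML3 clones were also called higher in HOXA9 (0.55) and lower in CLEC12A (-0.85, at under 1 TPM there), and neither was called in DPYSL3. Both OCI-AML2 clones were also called higher in LMO2 (0.25), SOCS2 (0.76) and CDK6 (0.62). SALL4 was the single pluripotency gene in the table and stayed under the minimum level.

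**Figure D3:**
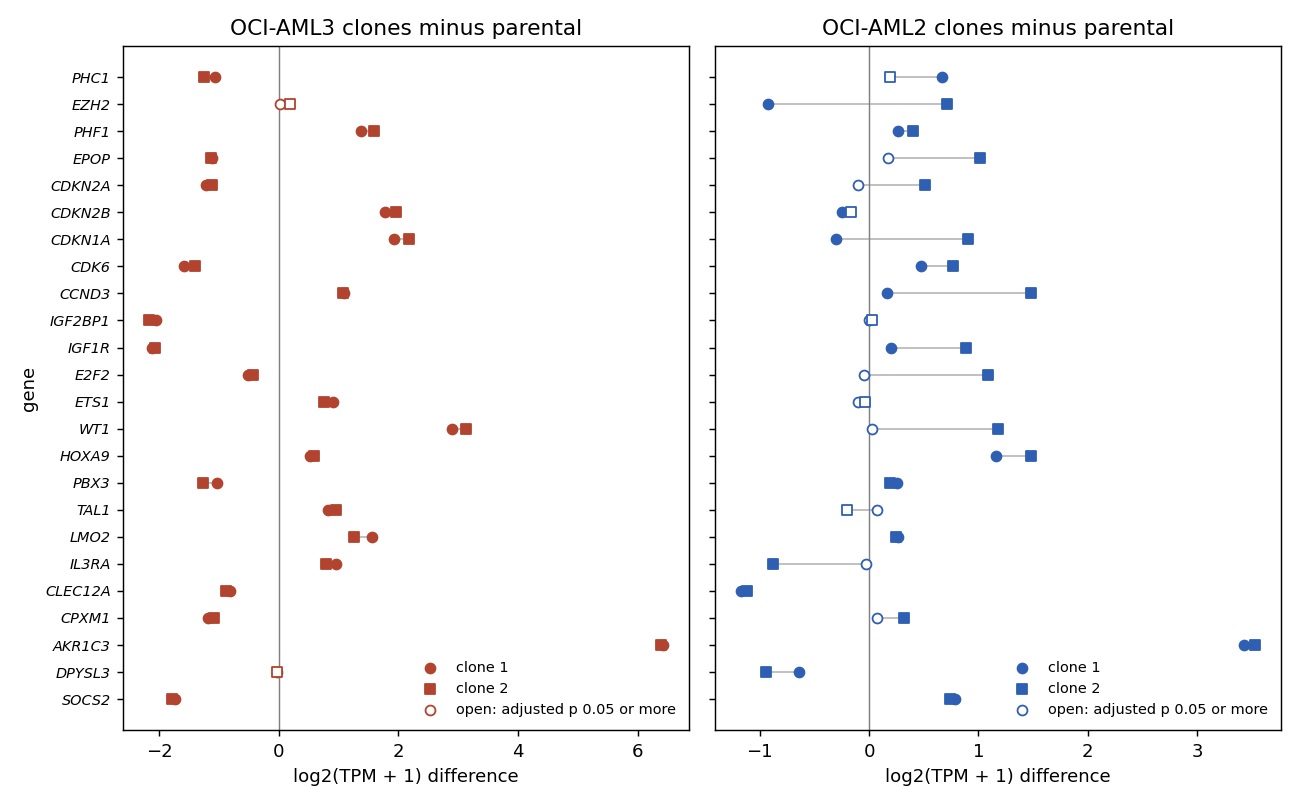
Change of the 24 other list genes that could be tested, as the difference of log2(TPM + 1) between each clone and parental cells of its line; circles are clone 1, squares clone 2, filled where the adjusted p was under 0.05, and the axes of the panels differ. The OCI-AML3 clones lie close together, as for IGF1R (-2.11 and -2.07), while the OCI-AML2 clones part for EZH2 (-0.92 and 0.71) and CCND3 (0.16 and 1.49).

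Other cell types have few markers with a settled symbol. PAX5, a B cell factor, reached at most 4.2 TPM in any library, and was called lower in both OCI-AML3 clones and higher in OCI-AML2 clone 1. ITGA2B, an integrin of megakaryocytes, averaged 0.437 and 0.320 TPM in OCI-AML3 clones 1 and 2, against 2.82 TPM in parental cells. In OCI-AML2 it averaged 0.853 TPM in each clone and 0.547 TPM in parental cells, so that it was called in the directions of BMI1 in all 4 clones. COL1A2, a collagen gene of fibroblasts, was called higher in both OCI-AML3 clones (mean 3.27 and 1.95 TPM, against 0.137 TPM) and was at or near 0 in OCI-AML2. No erythroid marker stands in the table, and no epithelial one had a settled symbol. NKG7, a granule gene of T and NK cells, was also called in the directions of BMI1 in all 4 clones. So were CDK6, IGF1R, SOCS2 and PBX3 of the lists above, and 8.34% of all tested sets. NKG7 stood at 118 to 139 TPM in OCI-AML2 clone 1, 151 to 194 TPM in clone 2 and 66.7 to 70.4 TPM in parental cells. In OCI-AML3 clone 1, clone 2 and parental cells it stood at 2.71 to 3.94, 2.88 to 6.29 and 12.6 to 20.01 TPM. The part of these markers in the results was not tested. In such bulk samples fewer cells of a type and less RNA per cell cannot be told apart.

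The genes next to TERT were lower in OCI-AML2 clone 1 as well. This comparison was chosen after values had been seen, and distances between the genes were not computed. Taken were the 5 nearest genes on either side in the RefSeq order of chromosome 5 that were tested under a settled symbol. All 10 were called lower in OCI-AML2 clone 1 (median log2 change -1.21), and 7 of 10 in clone 2 (median -0.65), while 22.5% and 29.6% of all 2064 named sets were lower. CLPTM1L, the next one on one side and a gene with a role in cell survival, averaged 83.2 TPM in clone 1, 174 TPM in clone 2 and 195 TPM in parental cells. TRIP13, the next one on the other side and an ATPase of the mitotic checkpoint, averaged 34.6, 90.03 and 85.9 TPM in the same order. Like TERT, both were called lower in clone 1 (log2 changes -1.22 and -1.29, adjusted p = 4.5e-09 and 3.5e-10) and not in clone 2 (-0.17 and 0.07, adjusted p = 0.125 and 0.529). BRD9, a chromatin remodelling subunit, and LPCAT1, an acyltransferase of membrane lipids, were lower in both clones. All 10 neighbours reached the log2 ratio of 0.95 given above in OCI-AML2 clone 1 and in neither other place, and of all 131 named sets of this kind 61.8% were called lower. In OCI-AML3, 5 of the 10 were called higher and 2 lower in clone 1, against 37.5% and 50.7% of all named sets. In OCI-AML3 clone 2, 5 were called higher and 3 lower, against 37.1% and 51.1%.

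**Figure D4:**
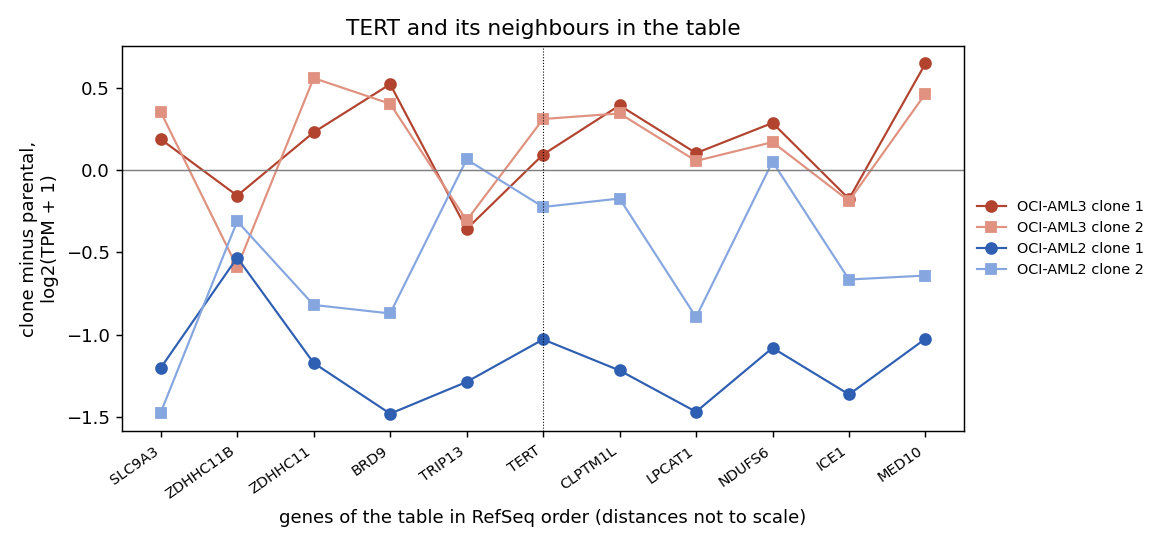
Change in each clone against parental cells of its line, as the difference of log2(TPM + 1), for TERT (dotted line) and the 5 nearest tested genes on either side, in RefSeq order and not to scale. OCI-AML2 clone 1 lies below 0 for TERT (-1.03) and for all 10 neighbours (median -1.21), and the OCI-AML3 clones lie on either side of 0.

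The neighbours of BMI1 and LIN28B were taken in the same way, by order and not by distance, so some may lie far off. Of all named sets, 41.2% were called higher and 22.5% lower in OCI-AML2 clone 1, and 38.2% higher and 29.6% lower in clone 2. Whether the counts that follow differ from these shares was not tested. Around BMI1 on chromosome 10, 5 of 10 genes were called higher and 3 lower in OCI-AML2 clone 1, and 6 higher and 3 lower in clone 2. COMMD3, which lies next to BMI1 and forms a readthrough transcript with it, rose in both (104.7 and 74.3 TPM in clones 1 and 2, against 40.9 TPM; log2 changes 1.33 and 0.85, adjusted p = 1.2e-08 and 2.6e-06). Reads shared between these 2 genes cannot be told apart, because the counting is not given in the sources used here. In OCI-AML3 COMMD3 did not follow BMI1, with log2 changes of 0.33 and 0.18 (adjusted p = 0.0135 and 0.161). Around LIN28B on chromosome 6, 4 of 10 were called higher and 1 lower in OCI-AML2 clone 1, and 2 higher and 4 lower in clone 2. In parental cells, OCI-AML3 minus OCI-AML2, 9 of the 10 neighbours of LIN28B were called lower, against 40.9% of all named sets.

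By the rule of the highest Pearson correlation over the 18 libraries, among 2063 named genes, those most like BMI1 were BEND6 (0.990), TSPAN13 (0.989) and OSBPL3 (0.988). Most unlike it were EGFL8 (-0.981), FAM117A (-0.980) and NLRP12 (-0.976). Those most like LIN28B were RAB15 (0.994) and ZNF347 (0.993), and most unlike CCDC106 (-0.992), NLRP12 (-0.987) and GCAT (-0.986). Those most like TERT were SLC4A2 (0.977), PAXIP1 (0.976) and LUC7L2 (0.960), and most unlike NPM2 (-0.961), CIITA (-0.960) and FDPS (-0.954). The points share 6 group levels, and the difference between the lines enters each of these values.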

How the data were processed

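The authors deposited 1 table that holds TPM for each gene in each library, as its headers say. Not given in the sources used here were the genome build, annotation, aligner and counting tool. All 18 value columns matched a sample by its title, and 0 were left over. Sets of values that recur were counted once. In recurring lines the replicates of OCI-AML3 clone 1 come in different orders: the symbol of the line reading a, b, c was kept where its twin read b, c, a. In 194 of 194 sets with 2 lines of the first order these carried 1 symbol. A single line was accepted where the log2 ratio of the parental lines was under 0.6, as for TERT. These rules settled 2258 symbols (44.5% of sets). The 194 sets do not check the rule for single lines, and TERT has no second line to check it with.

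Tested were the 4413 sets that reached 1 TPM in 3 or more libraries, all 3 genes among them. limma 3.58.1 in R 4.3.3 was fitted to log2(TPM + 1) with 1 mean per group and an intensity trend; p-values are two-sided with Benjamini-Hochberg adjustment over all sets. The script was tested on simulated data. Named were the 3 genes, the 4 list genes changed most in both clones of a line, and for each of the 3 genes the 3 most and least correlated genes. One gene that this rule names is not reported here. PHC1, EZH2 and other genes beyond this rule were named after their values had been seen. The 3 genes and all lists were chosen with earlier results of these data known. Alternatives were other pseudocounts (0.1, 0.5) and minimum levels (none, 5 TPM), rescaling, a replicate block, libraries of 1 cell line only, every deposited line kept, no trend and leaving out each library.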

Additional observations from a re-analysis of the deposited data

Results flagged for a closer look

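The change in OCI-AML3 clones minus that in OCI-AML2 clones passed the test of the difference for all 3 genes, at -2.31 for BMI1, -1.58 for LIN28B and 0.83 for TERT on the log2(TPM + 1) scale (adjusted p = 4.0e-09, 4.1e-10 and 2.2e-05). For BMI1 the clone means moved in opposite directions in the lines, and for LIN28B the OCI-AML3 libraries were at or near 0. Both statements hold for the values assigned here and not for the second lines of these symbols, given below. The OCI-AML2 clones, set against the same parental libraries, differed from each other by 0.57 in BMI1, 0.85 in LIN28B and 0.81 in TERT, clone 2 minus clone 1 (adjusted p = 0.00429, 2.7e-07 and 6.6e-06). Of all tested sets 81.7% passed the first test and 58.9% the second.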

How the results depend on the processing

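Of 561 values of the 3 genes under up to 27 other settings a comparison, 556 kept their direction and their side of the threshold. The second lines of BMI1 and LIN28B, given below, are not among them. Many of these settings, such as leaving out a library of another group, cannot move a difference and act only on its SE and adjusted p. The 5 values that did not keep both concern TERT. Its difference between the parental lines was 0.17 after rescaling and 0.21 to 0.39 without 1 library, and its change in OCI-AML3 clone 2 was 0.21 to 0.41 without 1 library; the cause was not tested. Rescaling moved the median difference of changes over all sets by 0.168. Counts of calls stayed within 1.5 times except between the OCI-AML3 clones, where 301 sets passed, 166 with a pseudocount of 0.1, 194 with libraries of that line only and 102 to 370 without 1 library. Same-numbered libraries did not deviate together, with 2 of 18 correlations within a line above 0.1 (range -0.34 to 0.18). Of 18 libraries, 2 correlated best with their own number. The numbers were therefore not used as a pairing, although the labels do not say whether same-numbered libraries were prepared together. The replicate order of OCI-AML3 clone 1 differs between recurring lines and is not settled for every set. Correlations that use this group, and in part the replicate block, can therefore not decide whether numbers pair. With the replicate block BMI1 stayed at 1.30 and 1.87 in OCI-AML2 clones 1 and 2, no call on the 3 genes changed, and 241 sets passed between the OCI-AML3 clones.

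BMI1 and LIN28B each stand on a second line that the replicate order assigns to another symbol, an alternative added after seeing the data. With that line BMI1 was at 0.22 in OCI-AML2 clone 1 (adjusted p = 0.118), -1.40 in clone 2, -1.61 for clone 2 minus clone 1, 2.55 between the parental lines and 0.30 between the OCI-AML3 clones. In OCI-AML3 clones 1 and 2 BMI1 stayed lower, at -1.29 and -0.99. LIN28B was at -0.59 and -0.79 in OCI-AML2 clones 1 and 2, -0.21 between them and 1.23 between the parental lines. The rise of both genes in OCI-AML2 and their parental difference therefore rest on the rule that assigns the lines, as does the reading of LIN28B as near 0 in OCI-AML3, while the fall of BMI1 in OCI-AML3 does not. The opposite directions of BMI1 in OCI-AML3 and OCI-AML2 rest on that rule too. So do the sizes of the differences of changes of BMI1 (-2.31) and LIN28B (-1.58). TERT stands on 1 line, accepted by the rule for single lines, so its assignment could not be checked in this way. Depth is unknown, which limits LIN28B in OCI-AML3 in particular.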

Other observations

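Among the 20 named genes most correlated with TERT over the 18 libraries, 12 lie on chromosome 7, the chromosome of CASP2, and 5 on chromosome 5, the chromosome of TERT, while these chromosomes hold 7.06% and 6.09% of the 1970 named genes with a known chromosome. Those on chromosome 7 were SLC4A2, PAXIP1, LUC7L2, AGAP3, CHPF2, CNOT4, UBN2, FASTK, ZNF746, TRIM24, ZNF282 and HIPK2, and those on chromosome 5 were DAP, LPCAT1, NSUN2, HBEGF and CLPTM1L. SLC4A2, an anion exchanger gene, was the one most correlated with TERT, so an order shared with TERT is no further result. It averaged 25.0, 52.0 and 75.3 TPM in OCI-AML2 clone 1, clone 2 and parental cells, the order of TERT. The number of 20 was chosen after the first genes had been seen, and copy number was not measured. Shares of both chromosomes among the 131 named sets that met the log2 ratio of 0.95 in OCI-AML2 clone 1 only are not given. All named genes may therefore be an unlike background for these 20.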
